A study of Mus musculus with 4 samples.

Results

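The Ms4a genes encode small membrane proteins that cross the lipid bilayer with 4 segments, and in the mouse they lie side by side on chromosome 19. The 8 genes described here, Ms4a4a, Ms4a4b, Ms4a4c, Ms4a4d, Ms4a6b, Ms4a6c, Ms4a6d and Ms4a7, are the group around Ms4a4d. They were chosen from earlier results of the same comparison, in which Ms4a4d was among the strongest rises, so the induced-against-control values of these genes are a description and carry no test. Of the 8 genes, 2 have a row among the 24689 rows of the deposited table, Ms4a4d and Ms4a4b, and the expression of the other 6 was not analysed here. Only Ms4a4d passed the filter on low values, a mean of at least 1 CPM (counts per 1000000 reads in genes) over all libraries.

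RNA was sequenced from HT-22, a mouse line of immortalized hippocampal neurons, at passages 21 to 24. The control group is 2 libraries of uninduced cells, titled wild type by the submitters, and the induced group is 2 libraries of cells with induced Pja2, titled Pja2-pb, a tag the labels do not explain. Pja2 encodes a RING-type ubiquitin ligase, and the sources used here do not say how it was induced, with which agent, or whether the line is 1 clone. Both groups share the HT-22 background, and it is not known whether they derive from the same sub-line or from separate cultures, so p-values measure the spread between these libraries only.

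Members of this family are best known from cells of the immune system. Ms4a1 encodes CD20 of B cells and Ms4a2 the beta subunit of the high-affinity IgE receptor of mast cells, where it amplifies signalling. MS4A4A and MS4A7 are markers of macrophages, MS4A4A being a surface partner of the fungal receptor dectin-1, and Ms4a4b is known from T cells. In microglia, variation at the human MS4A locus is linked to the amount of soluble TREM2, a lipid-sensing receptor.

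The libraries held 25787452 and 31010351 reads in genes in control cells and 30080376 and 35262653 under induction. Normalized reads are reads divided by the authors' factor for each library. Pja2 itself had 6167 and 5881 normalized reads in control cells and 54830 and 54244 under induction. Markers of neurons summed to between 53.0 and 61.5 CPM per library over the 9 of 18 listed genes with a row, with Syn1 and Tubb3 leading, and 4 of them (Dcx, Nefl, Slc17a7 and Syt1) had at most 10 reads in every library. Markers of fibroblasts and mesenchymal cells summed to between 16557 and 18622 CPM, with Col1a2 and Fn1 among the most abundant. Few of the listed neuronal markers were thus abundant in these libraries, and the level of those without a row is not known. The sums are not corrected for length and do not decide the identity of the cells.

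Ms4a4d, Ms4a4c and Ms4a4b are close copies of one another, and the question of which gene a read belongs to starts with their sequences. The first 135 coding bases of Ms4a4d, its first coding exon, are printed here with the aligned bases of its nearest relatives, because the longest stretch shared with another gene lies there. Sequences are from GENCODE M21 transcripts (mouse build GRCm38), 5′ to 3′, and capitals mark bases that differ from Ms4a4d.
Ms4a4d: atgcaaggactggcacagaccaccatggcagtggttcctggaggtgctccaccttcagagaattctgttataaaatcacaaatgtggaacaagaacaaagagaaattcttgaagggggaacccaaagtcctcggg
Ms4a4c: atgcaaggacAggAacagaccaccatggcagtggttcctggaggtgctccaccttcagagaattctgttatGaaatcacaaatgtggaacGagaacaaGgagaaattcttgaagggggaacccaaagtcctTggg
Ms4a4b: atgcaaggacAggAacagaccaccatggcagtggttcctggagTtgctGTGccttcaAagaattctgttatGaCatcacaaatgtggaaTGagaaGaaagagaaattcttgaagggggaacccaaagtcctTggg
In this exon Ms4a4c differed from Ms4a4d at 6 bases and Ms4a4b at 13, with no gap in either alignment. Over the whole coding sequence of Ms4a4d (675 bases in 6 exons, without the stop codon) the identity was 87.9% with Ms4a4c and 85.6% with Ms4a4b. It was 67.7% with Ms4a4a and between 57.9% and 60.0% with Ms4a6b, Ms4a6c, Ms4a6d and Ms4a7.

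The longest run that Ms4a4d shares with Ms4a4c is 57 bases long, from coding base 15 to 71.
Ms4a4d and Ms4a4c: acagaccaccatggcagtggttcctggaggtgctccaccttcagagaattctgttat
The longest run shared with Ms4a4b is 35 bases, from coding base 97 to 131.
Ms4a4d and Ms4a4b: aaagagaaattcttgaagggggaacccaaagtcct
Of the 1464 stretches of 50 bases in the Ms4a4d transcript, 8 (0.546%) also occur in another gene's transcripts on either strand, and that gene is Ms4a4c in each case. At 75 and at 100 bases, 0 of 1439 and 0 of 1414 stretches do. For Ms4a4b 2.40%, 1.18% and 0.473% of the stretches of these 3 lengths occur in another gene, among them Ms4a4c and Ms4a2. Read length is not given in the sources used here, and sequence outside annotated transcripts was not searched. No exon of Ms4a4d or of Ms4a4b overlaps an exon of another GENCODE gene.

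Ms4a4d (ENSMUSG00000024678, plus strand, 1 annotated transcript with 1513 exonic bases) was present at a low level in control cells and was much higher in induced cells. It had 67 and 88 reads in control cells and 1142 and 1343 under induction. On the scale of normalized reads these are 84.3 and 92.7 against 1242 and 1246. The 2 induced libraries lay close to each other and far above both controls, so the groups did not overlap. The group means were 88.5 ± 5.96 (SD, n = 2) and 1244 ± 2.61 (SD, n = 2), a ratio of 14.1, and the limma log2 fold change, on a scale with a pseudocount of 1, was 3.80 (SE 0.12). In bulk RNA, more cells expressing the gene and more RNA per cell cannot be told apart.

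As a share of all reads, Ms4a4d had 2.60 CPM (exact 95% Poisson interval 2.01 to 3.30) and 2.84 CPM (2.28 to 3.50) in control cells. It had 38.0 CPM (35.8 to 40.2) and 38.1 CPM (36.1 to 40.2) under induction. Within each group the intervals overlap, and between the groups they are far apart. These intervals cover counting error only. With 2 libraries against 2 an exact permutation test over samples cannot give a two-sided p below 0.333.

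**Figure D1:**
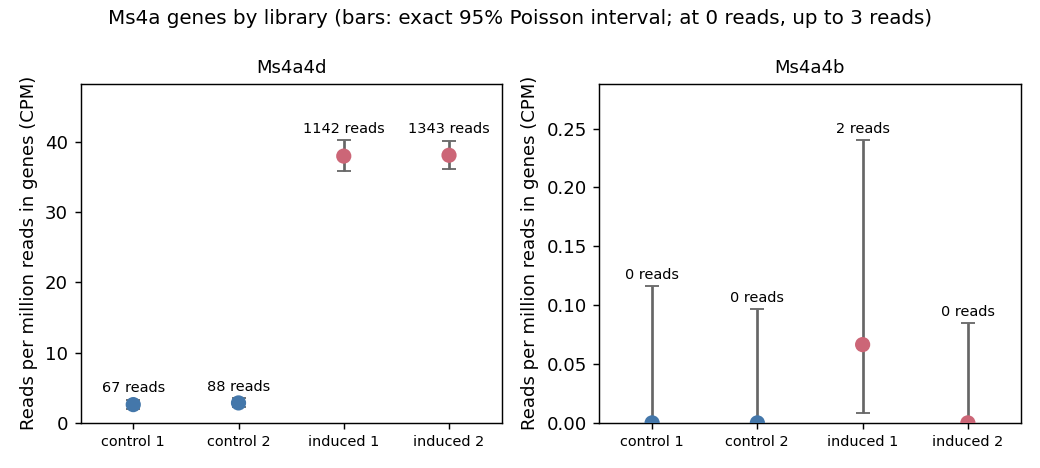
CPM (vertical axis, linear, a separate scale for each gene) of Ms4a4d and Ms4a4b in the 2 control (blue) and 2 induced (red) libraries; bars are exact 95% Poisson intervals or, at 0 reads, reach the level of 3 reads, and the labels give reads. Ms4a4d sits at 2.60 and 2.84 CPM in control cells and at 38.0 and 38.1 CPM under induction, while Ms4a4b has 2 reads in 1 induced library and 0 in the others.

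Ms4a4b (ENSMUSG00000056290), the T cell member, was listed at 0 reads in both controls and in induced replicate 2 and had 2 reads in induced replicate 1. A count of 0, taken to allow up to 3 reads, allows up to 0.116 and 0.0967 CPM in control cells and 0.0851 CPM in induced replicate 2. The 2 reads of induced replicate 1 stand for 0.0665 CPM, below the level that 3 reads would give there (0.0997 CPM). No fold is given, since both groups lie at or under that floor, and a difference between groups was not detectable at this depth. The level of Ms4a4b was 2 reads over all libraries against 2640 for Ms4a4d.

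Among the 13276 genes that passed the filter, 2.08% were called higher and 1.34% lower in induced cells (276 and 178 genes, limma, Benjamini-Hochberg adjusted p under 0.05). Ms4a4d, the 1 tested gene of the 8, was among those called higher. Both induced libraries lay above both controls for 26.2% of tested genes, and Ms4a4d was one of them. As the gene was chosen by this contrast, nothing is read from these counts. By size of log2 fold change Ms4a4d stood at rank 8, between Acp5 at 3.87 and the predicted gene Gm13054 at 3.79.

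On chromosome 19 the rise of Ms4a4d stood beside genes with few reads or small differences. RefSeq (GRCm38.p6, used for gene order only) places 21 Ms4a genes and 11 other genes in the stretch from Ms4a10 to Ms4a3, and 8 of these 32 have a row. Ms4a4d is number 18 of the 21, with Ms4a6b before it and Ms4a6d after it. Of the 11 interspersed genes, 6 have a row, and those nearest to Ms4a4d had at most 10 reads in any library.

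Gm8369, a protein-coding gene that shares 50-base stretches with Ms4a4b, had 0, 0, 0 and 10 reads in control 1, control 2, induced 1 and induced 2. The long non-coding gene BE692007, whose exons overlap those of Ms4a6c, had 0, 0, 3 and 7, and the pseudogene Gm10212, the next RefSeq entry after Ms4a4d, had 0, 0, 1 and 0. All 3 were below the filter. Gm5511, a pseudogene between Ms4a4c and Ms4a4b, had 23, 26, 34 and 34 reads and was also below it. The pseudogene Gm6501 had 209 and 206 normalized reads in control cells and 238 and 230 under induction (limma adjusted p = 0.549). AW112010, an RNA gene between Ms4a18 and Ms4a8a, had 11 reads in control 1 and 0 elsewhere. These 6 interspersed genes were named after their values were seen.

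The genes that flank the stretch differed by much less than Ms4a4d. On the near side of Ms4a10, Prpf19, a splicing factor with ubiquitin ligase activity, had 5646 and 6389 normalized reads in control cells and 7342 and 7437 under induction, and Ccdc86 had 416 and 541 against 602 and 579. On the far side, the mitochondrial ribosomal protein gene Mrpl16 had 804 and 853 against 1084 and 1016, and the syntaxin gene Stx3, which acts in membrane fusion, 1307 and 1469 against 1461 and 1438. The limma adjusted p was 0.118 for Prpf19, 0.325 for Ccdc86, 0.124 for Mrpl16 and 0.735 for Stx3, so 0 of these 4 tested flanking genes passed. The log2 fold changes ran from 0.07 for Stx3 to 0.34 for Mrpl16, against 3.80 for Ms4a4d. Both induced libraries lay above both controls for Prpf19, Ccdc86 and Mrpl16 but not for Stx3, beside 26.2% of all tested genes. The other flanking genes, the prostaglandin receptor gene Ptgdr2 and the olfactory receptor gene Olfr1417, had 12, 9, 6 and 7 reads and 1, 4, 5 and 4 reads and were below the filter.

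**Figure D2:**
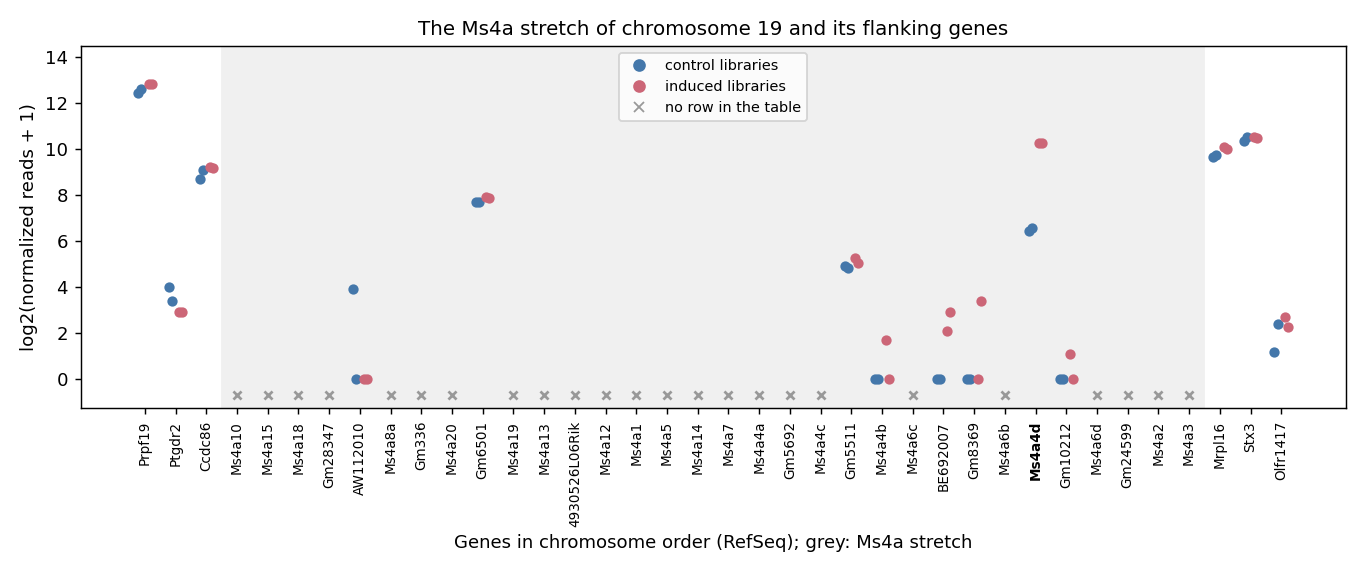
Deposited log2(normalized reads + 1) (vertical axis) of genes in RefSeq order (horizontal axis, not to scale) across the Ms4a stretch (grey) and 3 genes on either side, with control libraries in blue, induced libraries in red and grey crosses for genes with no row. Ms4a4d moves from 6.41 and 6.55 to 10.28 and 10.28, while the 4 tested flanking genes differ by 0.07 to 0.34 between the group means.

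The promoter windows of the 3 close copies are shown next, because 1 of these genes was abundant in induced cells and another had 2 reads in all. Each window runs from 250 bases before to 50 after the RefSeq start (GRCm38.p6), in the direction of transcription. Capitals mark the longest run shared with Ms4a4b and, in Ms4a4b, with Ms4a4c. The windows are chr19:11536544-11536843 for Ms4a4d, chr19:11443308-11443607 for Ms4a4b and chr19:11407411-11407710 for Ms4a4c, all on the plus strand.
Ms4a4d: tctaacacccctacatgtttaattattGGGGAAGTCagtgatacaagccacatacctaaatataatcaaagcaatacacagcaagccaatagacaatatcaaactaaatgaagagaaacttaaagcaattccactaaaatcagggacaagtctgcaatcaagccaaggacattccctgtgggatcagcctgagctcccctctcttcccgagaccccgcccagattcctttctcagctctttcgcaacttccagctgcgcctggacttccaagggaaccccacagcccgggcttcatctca
Ms4a4b: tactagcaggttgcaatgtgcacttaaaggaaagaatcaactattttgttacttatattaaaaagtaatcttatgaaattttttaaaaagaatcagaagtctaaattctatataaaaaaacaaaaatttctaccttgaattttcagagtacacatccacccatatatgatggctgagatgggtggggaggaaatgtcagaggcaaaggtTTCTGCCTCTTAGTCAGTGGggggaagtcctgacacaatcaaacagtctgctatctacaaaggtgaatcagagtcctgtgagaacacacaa
Ms4a4c: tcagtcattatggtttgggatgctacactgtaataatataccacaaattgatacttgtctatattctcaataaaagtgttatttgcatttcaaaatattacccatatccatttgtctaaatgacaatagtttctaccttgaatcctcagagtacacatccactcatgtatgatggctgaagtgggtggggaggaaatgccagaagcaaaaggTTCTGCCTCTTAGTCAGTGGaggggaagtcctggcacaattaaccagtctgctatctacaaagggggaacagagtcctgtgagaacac
Ms4a4b and Ms4a4c aligned over 177 bases with 89.8% identity, and their longest shared run is 20 bases. Ms4a4d aligned with Ms4a4b over 18 bases and with Ms4a4c over 22, with a longest shared run of 9 bases in each case. The coding sequences of the 3 genes were thus alike, while the window of Ms4a4d shared only short runs with the others. The window of Ms4a4d held 46.7% G and C, that of Ms4a4b 35.7% and that of Ms4a4c 40.0%, against a median of 52.7% over 32851 windows of the same length.

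Windows were found for 7 of the 8 genes, 8 windows in all, Ms4a7 having 2 of them. They were searched on both strands for 6 motifs. The STAT motif TTCNNNGAA occurs in 8.30% of all windows, the interferon response motif in 3.44% and the motif GAGGAAGT of PU.1 and other ETS factors in 3.20%. The AP-1 motif TGANTCA occurs in 7.81%, the CREB motif TGACGTCA in 1.79% and the TATA box TATAAA in 13.6%. The window of Ms4a4d matched none of them. The window of Ms4a4b held TATAAA from base -140 and TGAATCA from base 23, counted from the start, and 1 window of Ms4a7 held TGATTCA from base -81. None of the matches overlapped another, and no match was found in the windows of Ms4a4a, Ms4a4c, Ms4a6b and Ms4a6c.

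Per length, Ms4a4d moved from a low to a middle level among genes of four-pass membrane proteins. CPM per kilobase of exon (RPKM, with GENCODE M21 exon lengths) were 1.72 and 1.88 in control cells and 25.1 and 25.2 under induction. In the controls 16.2% and 18.0% of tested genes had a lower RPKM, and under induction 83.0% and 83.1%. Among 28 genes of this kind, comprising Ms4a4d, the related Tmem176a and Tmem176b and 25 tetraspanins, Ms4a4d ranked 18 in control cells and 9 under induction. The lengths join the exons of all annotated transcripts of a gene, 1 for Ms4a4d and 7, with 8780 bases, for Ms4a4b. A gene that uses only some of these exons gets too low an RPKM. Levels and ranks between genes therefore depend on this choice of length.

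In the induced cells its neighbours in that order were Cd9, an adhesion-associated tetraspanin, at 30.4 ± 1.56 RPKM (SD, n = 2) above and Tspan3 at 22.1 ± 1.50 RPKM (SD, n = 2) below. Ms4a4d at 25.1 ± 0.0564 RPKM (SD, n = 2) lay outside the range of both, and Tspan3 and Tspan17 (17.2 ± 0.588) followed. In the controls its neighbours were Rom1, a photoreceptor tetraspanin, at 2.30 ± 0.0297 RPKM and Tspan12 at 1.28 ± 0.0670 RPKM, with Ms4a4d at 1.80 ± 0.112 RPKM between them. The most abundant genes of the set were Cd81, Cd63 and Tmem176b, at 121, 95.9 and 87.3 RPKM under induction.

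**Figure D3:**
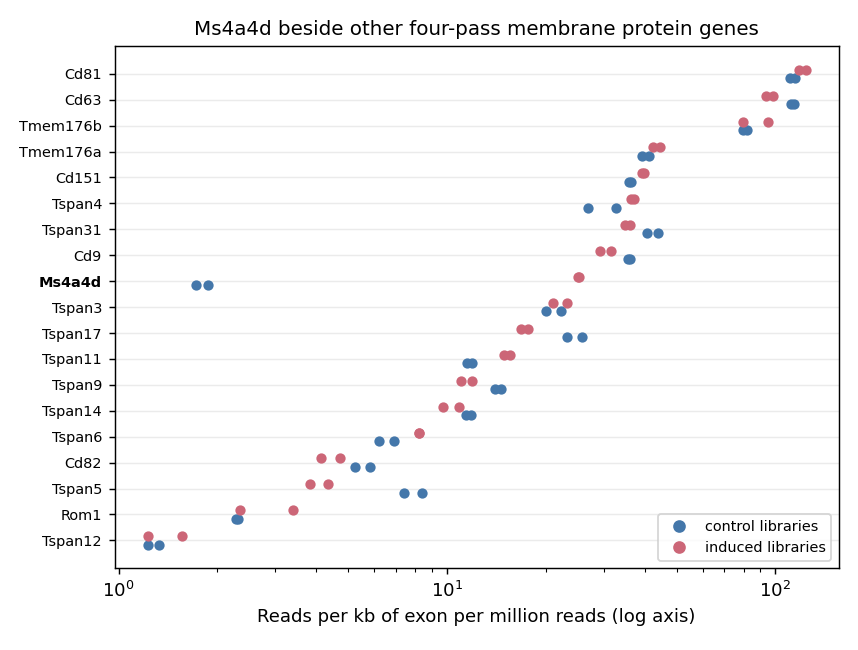
RPKM (horizontal log axis) of Ms4a4d, Tmem176a, Tmem176b and the tetraspanins with a mean above 1 in either group; each point is 1 library, control blue and induced red. Ms4a4d moves from 1.80 to 25.1, passing from below Rom1 to between Cd9 and Tspan3.

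The other relatives with a row differed little between the groups. Tmem176a and Tmem176b, four-pass proteins related to the Ms4a family and known from dendritic cells, had 5099 and 4891 against 5562 and 5293 normalized reads and 6282 and 6159 against 7374 and 6169. Their log2 fold changes were 0.12 (SE 0.06, limma adjusted p = 0.373) and 0.12 (SE 0.09, adjusted p = 0.554). That of Tmem176b was -0.01 without induced replicate 1. Neither passed at an unadjusted p under 0.05 or with voom. The other 14 listed relatives have no row.

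Of 17 tested tetraspanins 1 rose, 1 fell and 15 did not pass, with a median log2 fold change of -0.17 beside 0.00 over all tested genes, of which 2.08% rose and 1.34% fell. Voom called 1 tetraspanin in each direction, beside 271 higher and 190 lower over all 13276 tested genes. At an unadjusted p under 0.05 there were 3 higher and 7 lower tetraspanins. The share of all tested genes at that level was not counted, so nothing is read from the unadjusted counts of any list here. Tspan5, whose product guides the protease ADAM10, fell from 2004 and 1790 normalized reads to 923 and 1049 (log2 fold change -0.94, SE 0.10, limma adjusted p = 0.0143). Tspan11 had 1987 and 2069 in control cells and 2714 and 2598 under induction, a 1.31-fold rise (log2 fold change 0.39, limma adjusted p = 0.0488), and this call ended whichever library was left out (adjusted p from 0.0827 to 0.204). Cd63 and Cd81, the most abundant, did not pass (limma adjusted p = 0.123 and 0.419).

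Partners of Ms4a proteins and immunoreceptor signalling genes were low throughout. Of 17 listed genes 11 have a row and 4 were tested, of which 0 were called by limma or by voom, and 2 higher and 1 lower had an unadjusted p under 0.05. Trem2 had 211 and 177 normalized reads in control cells and 359 and 282 under induction, a ratio of 1.65 (limma adjusted p = 0.113). Inpp5d, a lipid phosphatase of immune signalling, had 67.9 and 36.9 against 120 and 153, a ratio of 2.60 (limma adjusted p = 0.100, named after its values were seen). Fcgr4, an IgG receptor gene, went the other way, with 121 and 114 against 78.3 and 74.2 (log2 fold change -0.61, limma adjusted p = 0.178, also named after its values were seen). For Trem2 and Inpp5d both induced libraries lay above both controls, as for 26.2% of all tested genes, and neither was called. For Fcgr4 they lay below, also without a call, and the share of all tested genes with that order was not counted. Tnfrsf18, the GITR receptor that is known as a partner of MS4A4B, had 181 and 139 against 130 and 150 (adjusted p = 0.680). Fcgr1, a high-affinity IgG receptor gene below the filter, had 3, 9, 39 and 22 reads (control 1, control 2, induced 1, induced 2), while Fcer1g, the common gamma chain of Fc receptors, had 2 reads in induced replicate 2 and 0 in the other libraries.

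Markers of the immune cells in which Ms4a genes are best known were measured beside Ms4a4d. Of 26 listed macrophage and microglia genes 16 have a row and 6 were tested, and 0 were called by limma or by voom, while 2 higher and 1 lower had an unadjusted p under 0.05. Their summed level was 78.1 to 89.0 CPM in control cells and 78.8 to 79.9 CPM under induction, most of it from Tmem119. Without Tmem119 the sums were 21.6 and 22.1 CPM against 30.5 and 29.7 CPM. Of the 6 tested genes 5 had a log2 fold change above 0, all but Tmem119. Over all tested genes 6691 of 13276 did. The median of the 6 was 0.57, beside 0.00 over all tested genes. Several defining markers were at or near 0. Of the 16 genes with a row, 9 (Adgre1, Csf1r, Cx3cr1, Fcer1g, Itgam, Mpeg1, Mrc1, Ptprc and Spi1) had no more than 10 reads in any library. Ptprc, the pan-leukocyte marker CD45, had 5 reads in control 1 and 0 elsewhere.

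For T and B lymphocytes 9 of 18 listed markers have a row and none was tested, with summed levels of 0.709 to 0.776 CPM in control cells and 1.16 CPM in both induced libraries. The members did not move one way. The T cell genes Zap70 and Cd4 had 0, 0, 6 and 5 reads and 3, 0, 8 and 11 reads (control 1, control 2, induced 1, induced 2). The B cell genes Cd79a, Cd79b and Pax5 had 6, 11, 5 and 3 reads, 0, 2, 0 and 0 reads, and 6, 6, 5 and 8 reads. Mast cell, basophil and granulocyte markers summed to 14.9 to 15.1 CPM in control cells and 13.9 to 17.1 CPM under induction, nearly all from Gata2. Without Gata2, the 1 gene of this list that was tested, the sums were 0.465 and 0.226 CPM against 1.10 and 1.16 CPM. The 38.0 and 38.1 CPM of Ms4a4d under induction exceeded those of every marker with a row in these lists except Tmem119. CPM is not corrected for length. Per length, Ms4a4d was also above Tmem119 under induction, with group means of 25.1 and 21.3 RPKM. That order depends on the exon lengths, which join all annotated transcripts of a gene.

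Of 23 tested interferon-stimulated genes, a class that includes some Ms4a genes in immune cells, 3 rose, 0 fell and 20 did not pass, with a median log2 fold change of 0.07. Over all tested genes 2.08% rose and 1.34% fell. Voom called 2 higher and 1 lower, beside 271 and 190 over all 13276 tested genes. At an unadjusted p under 0.05 there were 6 higher and 2 lower, a level at which all genes were not counted. Gbp7, a guanylate-binding protein gene, had 248 and 210 normalized reads in control cells and 497 and 492 under induction (limma adjusted p = 0.0201). The 2'-5' oligoadenylate synthetase-like gene Oasl1 had 28.9 and 42.1 against 104 and 104 (limma adjusted p = 0.0491), and the chemokine gene Cxcl10 had 214 and 231 against 361 and 369 (adjusted p = 0.0488). The call of Gbp7 ended without either induced library (adjusted p up to 0.0621), and those of Oasl1 and Cxcl10 ended whichever library was left out (up to 0.157 and 0.202). Ddx58, an abundant member that encodes the RNA sensor RIG-I, had a limma adjusted p of 0.931.

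The 5 genes whose pattern over the 4 libraries was nearest to that of Ms4a4d, by Euclidean distance of the log2 values after each gene was centred on its mean, were Pja2, Gm13054, Acp5, Mgam and Sema3c. The distances were 0.638, 0.677, 0.854, 1.02 and 1.13 on the log2 scale. With 4 libraries in 2 groups this measure mostly ranks genes by the size of their rise, and it is given as a description. Pja2 came nearest, with a log2 fold change of 3.18. Acp5, a lysosomal acid phosphatase gene of osteoclasts and macrophages, had 54.1 and 25.3 normalized reads in control cells and 545 and 565 under induction. Mgam, a maltase-glucoamylase gene, had 9 and 5 reads against 64 and 100, and Sema3c, a guidance cue gene, had 1324 and 899 normalized reads against 7625 and 7427. Gm13054 had 5 and 3 reads in control cells and 73 and 77 under induction. The controls of Gm13054, Acp5, Mgam and Sema3c lay further apart than those of Ms4a4d. For Gm13054 and Mgam this spread rests on so few control reads that counting error weighs heavily on the log2 scale.

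**Figure D4:**
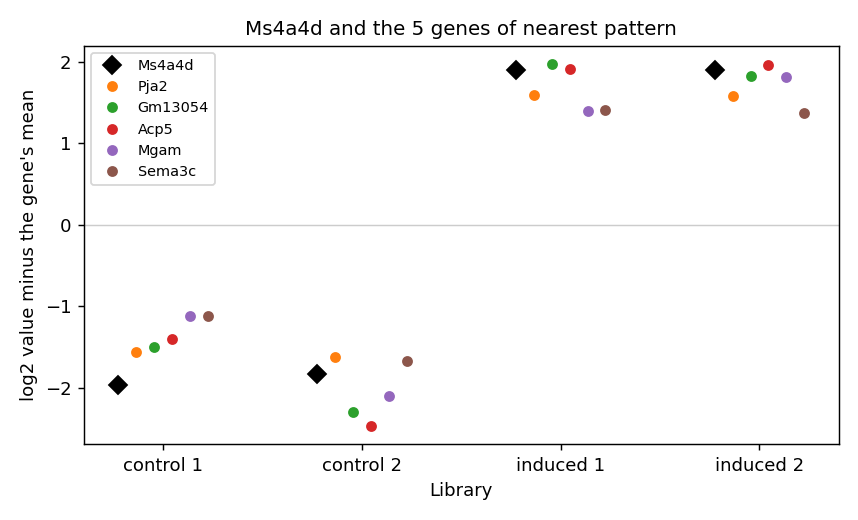
Log2 value of each library minus the gene's mean over the 4 libraries (vertical axis) for Ms4a4d (black diamonds) and the 5 genes of nearest pattern (coloured circles, offset sideways for legibility). The induced libraries of Ms4a4d lie at 1.90 and 1.90 and the controls at -1.97 and -1.83, and the controls of Gm13054, Acp5, Mgam and Sema3c lie further apart. The control points of Gm13054 (5 and 3 reads) and Mgam (9 and 5 reads) rest on few reads.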

How the data were processed

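Gene expression of 4 RNA-seq libraries was taken from 1 deposited table. Per the labels' protocols, Trizol extraction preceded TruSeq RNA libraries, a kit without strand marking. The submitters' processing notes name HISAT, Cufflinks and the genome build mm9. No source used here states the counting tool, annotation or scaling. The deposited log2 values are log2(normalized reads + 1), since 2 raised to each value, minus 1, was a whole multiple of 1 step per library in 100% of values (tolerance 0.01). Reads were recovered from these steps. Every row has a read in at least 1 library.

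Differences were fitted with limma 3.58.1 (R 4.3.3) on the deposited log2 values with a variance trend, for the 13276 genes averaging 1 CPM or more. P-values are two-sided with Benjamini-Hochberg adjustment over all of them (threshold 0.05). The procedure was tested on simulated data. Members and gene lists were chosen with earlier results of these data known. Genes were named by a rule: all members, other Ms4a genes, Pja2, the 5 nearest patterns, 3 flanking genes a side, and per list up to 4 called and 2 abundant members; Inpp5d, Fcgr4, Fcgr1, Fcer1g, Ptprc, Zap70, Cd4, Cd79a, Cd79b and Pax5 were added after their values were seen, and 1 gene the rule names is not reported here. Lists of neuronal, glial, fibroblast, macrophage, lymphocyte and granulocyte markers were also counted: 0 of 3 neuronal and 0 of 3 glial genes were called, and 1 fibroblast gene rose and 2 fell of 13. By voom 1 glial gene was called lower, and at an unadjusted p under 0.05 1 neuronal gene was higher and 1 glial gene each way. Alternatives covered filter, scaling, pseudocount, voom, replicate block and omitted libraries. Exon lengths were found for 24591 of 24689 genes. Alignments used Biopython 1.88.

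Within each group the counts differed by more than sampling noise (chi-square per gene, with genes of very few reads left out: 16.9 for controls, 12.9 for induced cells). No library was therefore treated as a duplicate of another, which does not show that they are separate cultures.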

Additional observations from a re-analysis of the deposited data

How the results depend on the processing

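The log2 fold change of Ms4a4d lay between 3.73 and 3.87 in all 12 alternative fits, a description of a gene chosen by this contrast. In these 12 fits the median log2 fold change of all genes was at most 0.014 in absolute size. Ms4a4b was below every filter. The counts over all genes depended more on the settings. Without the expression filter 100 genes were called higher and 59 lower, and 1 and 1 of the listed genes, against 5 and 3 of 71 distinct tested list genes in the reported fit. With the filter of 5 CPM 3 listed genes were called higher, and with voom 5 were called lower. With the replicate number as a block 157 genes were higher and 104 lower, and 2 listed genes higher. Same-numbered libraries did not deviate together across the tested genes as a whole (correlation -0.095). This single correlation cannot show whether the number marks a pairing that affects some of the genes. Leaving out 1 library left 113 to 204 genes higher, the lowest without induced replicate 2 (126 without induced replicate 1), and 78 to 136 lower, the lowest without control replicate 1 (111 without control replicate 2). For listed genes it left 0 to 3 higher, with 3 without control replicate 1, 1 without control replicate 2 and 0 without either induced library, and 2 to 3 lower. Such fits take the lone library to vary like the other group. The log2 fold change of Tmem176b ranged from -0.012 to 0.25 with 1 library left out, the lowest without induced replicate 1 and the highest without induced replicate 2. The edgeR test was not run, as the deposited unit is log2, and voom on the recovered reads was run in its place. Depth limits Ms4a4b, where 1 CPM stands for 25.8 to 35.3 reads.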
